A study of Oryctolagus cuniculus with 24 samples.

Results

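ENSOCUG00000002925, on the minus strand of chromosome 17, and ENSOCUG00000026988, on the plus strand of chromosome 16, are 2 of the 17318 rabbit genes in the deposited tables, given by the Ensembl identifiers that the tables use. They were chosen by their measured levels in lamina propria mononuclear cells (LPMC), which were higher in rabbits given ova of Trichuris suis (TSO) than in control rabbits. Their values in LPMC of TSO Water and Veh Water rabbits are therefore a description, with no test. Neither gene symbols nor positions within a chromosome stand in the tables. None of the identifiers (0 of 17318) was found among the 38822 named genes of another rabbit assembly, mOryCun1.1. What the 2 genes encode is therefore not stated here. For ENSOCUG00000002925 the group means were higher with ova than without in both cell types. Ova marked only part of the pattern of ENSOCUG00000026988. In LPMC its highest mean was that of rabbits given dextran sodium sulphate (DSS) without ova, and in epithelial cells the rank of that group rested on 1 rabbit.

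RNA of LPMC and of intestinal epithelial cells (IEC) from the caeca of 12 New Zealand white rabbits, aged 8 to 10 weeks on arrival, was sequenced in 24 libraries. TSO rabbits had received 2500 embryonated ova of the pig whipworm into the stomach on each of days 1, 14 and 21, and Veh rabbits the ova's buffer. From day 26, DSS rabbits drank fennel tea with 0.1% DSS over 5 days and Water rabbits plain fennel tea, and all tissue was taken on day 35. There were 4 groups of 3 rabbits, of which Veh Water was the control for TSO Water, Veh DSS and TSO DSS. Each rabbit gave both an IEC and an LPMC library. Only 2 rabbits, Veh Water rabbit 1 and TSO Water rabbit 2, were housed in room B and all others, with every DSS rabbit, in room A. Comparisons that hold a room B rabbit were repeated without it, and those tested with limma also with the room as a covariate.

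The whipworms live with their anterior end embedded in the epithelium of the large intestine. An infection is known for a type 2 immune response, in which epithelial cells release alarm cytokines, lymphocytes of the lamina propria make IL-4 and IL-13, and eosinophils, mast cells and alternatively activated macrophages gather in the mucosa. DSS damages the epithelium from the lumen, lets bacteria reach the lamina propria, and brings in neutrophils, monocytes and lymphocytes. IEC were taken here with EDTA and LPMC by collagenase digestion and a density gradient, so that each is an enriched mixture of cells and not a single cell type. The defining markers of IEC, LPMC and eosinophils were not checked, for want of symbols. In such bulk samples, a larger share of cells that express a gene and more RNA of it per cell cannot be told apart.

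IEC libraries held 13148495 to 27480023 reads and LPMC libraries 3685527 to 15770346. The smallest was the LPMC library of TSO DSS rabbit 3. The share of mitochondrial genes was 12.4% to 46.5% in IEC and 9.06% to 25.0% in LPMC. Levels are given as CPM, the reads of the gene per 1000000 reads of the library over all genes. With 27 reads at the least and 5573 at the most, the 95% Wilson interval of a single library was 1.66 to 3.52 CPM around the lowest value of 2.42 CPM and 278 to 293 CPM around the highest of 286 CPM. These intervals cover counting error only. The 2 genes passed the authors' own mark for presence in all 6 tables.

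ENSOCUG00000002925 was low in LPMC of Veh Water rabbits. Its level was 6.55, 6.14 and 4.57 CPM in Veh Water rabbits 1, 2 and 3 (5.76 ± 1.05, mean ± SD, n = 3). In TSO Water it was 102, 42.5 and 75.7 CPM (73.3 ± 29.7, SD, n = 3). The ratio of the group means was 12.7. Every TSO Water library was above every Veh Water library, in the contrast by which the gene was chosen. For this and all later separations of groups, the share of all genes that separate likewise was not counted. In TSO DSS the level was 101, 39.2 and 92.8 CPM (77.5 ± 33.4, SD, n = 3), 1.06 times the mean of TSO Water with overlapping values. In Veh DSS it was 9.81, 11.6 and 26.5 CPM (16.0 ± 9.14, SD, n = 3). DSS alone thus went with a level 2.77 times that of Veh Water, with no overlap, but the highest Veh DSS rabbit was still below the lowest rabbit given ova. Over the LPMC of all groups, the 6 TSO libraries lay at 39.2 to 102 CPM with a median of 84.2, and the 6 Veh libraries at 4.57 to 26.5 CPM with a median of 8.18.

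ENSOCUG00000026988 was also low in LPMC of Veh Water rabbits, at 2.63, 4.45 and 2.42 CPM (3.17 ± 1.12, SD, n = 3). In TSO Water its level was 30.7, 27.9 and 24.4 CPM (27.6 ± 3.16, SD, n = 3). The TSO Water rabbits lay close together and all above Veh Water, with a ratio of the means of 8.72. In TSO DSS it was 24.6, 41.9 and 30.9 CPM (32.5 ± 8.72, SD, n = 3), overlapping with TSO Water. In Veh DSS the rabbits were unlike each other, at 12.2, 97.5 and 100.2 CPM (70.0 ± 50.0, SD, n = 3). The rabbit at 12.2 CPM was above all Veh Water rabbits and below all rabbits given ova, whereas the other two were above every rabbit given ova. The Veh DSS mean was 22.1 times that of Veh Water, against 10.2 times for TSO DSS.

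On the scale of the tests, log2 of the deposited value plus 1, ENSOCUG00000002925 was higher than in Veh Water by 3.53 in TSO Water, 3.52 in TSO DSS and 1.29 in Veh DSS. For ENSOCUG00000026988 these log2 differences were 3.09, 3.23 and 3.94. All 3 comparisons use the same Veh Water libraries, which had been part of the choice of the genes, and none is a test of them. For the background, limma called 0.0268% of the genes tested in LPMC of TSO Water against Veh Water, 5.72% in TSO DSS and 0.125% in Veh DSS, where a call needs a log2 change beyond 1 and a p-value under 0.05 after Benjamini-Hochberg adjustment. The differences kept their direction without each single library and without the room B rabbits. For ENSOCUG00000026988 in Veh DSS the difference was 4.97 without Veh DSS rabbit 1 and 3.41 without Veh DSS rabbit 2. The smallest of all was 0.864, for ENSOCUG00000002925 in Veh DSS without Veh DSS rabbit 3.

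**Figure D1:**
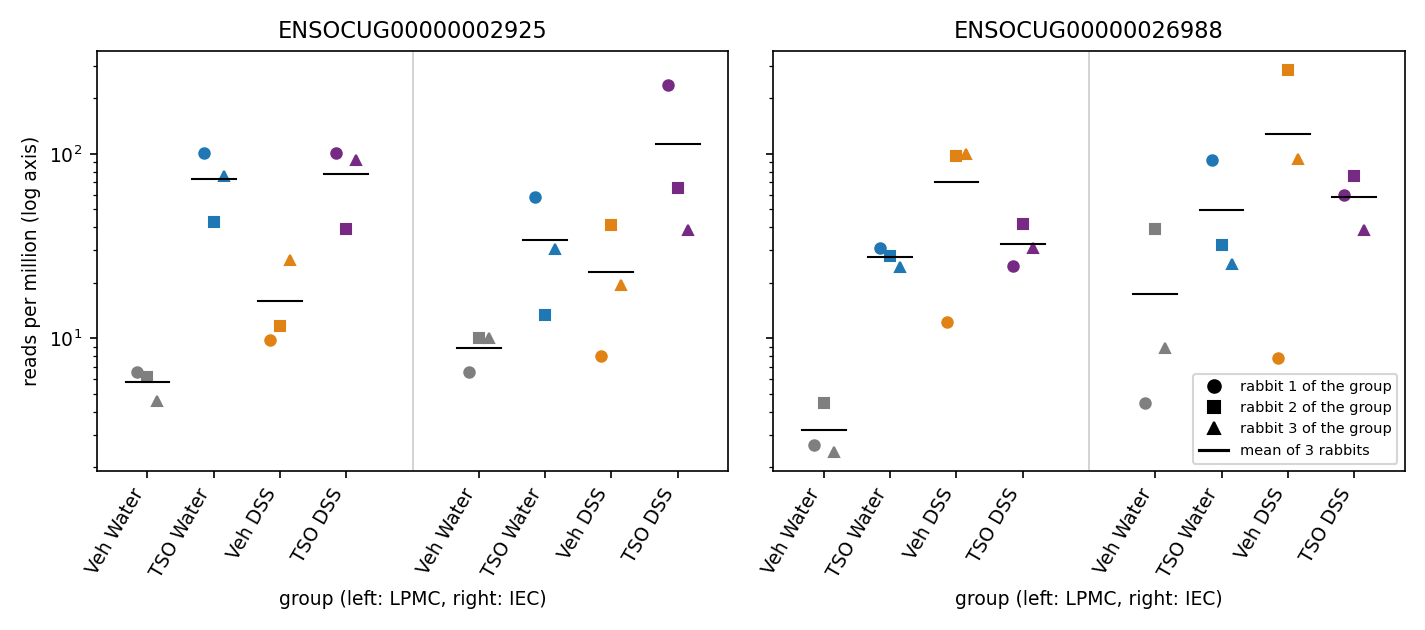
CPM of ENSOCUG00000002925 (left) and ENSOCUG00000026988 (right) in each of the 24 libraries on a log axis, by group, with LPMC on the left and IEC on the right of each panel. Symbols mark the rabbit of the group and bars the mean of 3 rabbits. For the first gene all LPMC points of TSO rabbits sit at 39.2 CPM or above, and for the second the highest points in both cell types are Veh DSS rabbits.

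The IEC libraries had no part in the choice of the genes, although they come from the same rabbits. Levels of the 2 cell types correlated over the rabbits, as given below, so that the IEC p-values may not be independent of that choice. ENSOCUG00000002925 was at 6.55, 10.1 and 10.0 CPM in IEC of Veh Water rabbits (8.89 ± 2.02, SD, n = 3) and at 58.1, 13.3 and 30.7 CPM in TSO Water (34.0 ± 22.6, SD, n = 3). In TSO DSS it reached 237, 65.6 and 38.7 CPM (114 ± 108, SD, n = 3). Every IEC library of both TSO groups was above every Veh Water library, though how many of all genes do the same was not counted. In Veh DSS the level was 8.03, 40.9 and 19.5 CPM (22.8 ± 16.7, SD, n = 3), which overlapped with Veh Water, TSO Water and TSO DSS.

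ENSOCUG00000002925 rose in IEC of TSO DSS against Veh Water by 3.51 on the log2 scale (standard error 0.57, 95% interval 2.15 to 4.87, adjusted p = 0.022 from limma), where 3.57% of 11225 genes were called. The edgeR quasi-likelihood test gave an adjusted p of 0.0309 and DESeq2 one of 1.80e-09, and over the 16 alternative settings the adjusted p lay between 1.80e-09 and 0.0865. The difference was as large with the library size taken without mitochondrial genes (3.47, adjusted p = 0.0174 from limma). Without Veh Water rabbit 1, 2 or 3 the difference was 3.30, 3.59 and 3.63, and the gene was not called (adjusted p = 0.0744, 0.0601 and 0.0787 from limma). Rabbit 1 was the room B rabbit. When TSO DSS rabbit 1, the highest, was left out, the log2 difference was 2.82 and was still called (adjusted p = 0.0228 from limma).

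Between TSO Water and Veh Water in IEC, the log2 difference of ENSOCUG00000002925 was 1.94 (standard error 0.43, 95% interval 0.92 to 2.96) and was not called (adjusted p = 0.999 from limma). Here limma called 0% of 10985 genes. Before adjustment 372 had p under 0.05, a smaller share than the 0.05 that arises with no differences at all. The edgeR quasi-likelihood test also called 0 genes, with an adjusted p of 0.999 for this gene. DESeq2 called 0.2% of the genes, among them ENSOCUG00000002925 (log2 difference 2.07, adjusted p = 0.00168 from DESeq2). For Veh DSS against Veh Water the log2 difference in IEC was 1.16 (95% interval -0.21 to 2.54, adjusted p = 0.597 from limma), where 0.0893% of 11193 genes were called. Without Veh DSS rabbit 2 it was 0.57. For TSO DSS against Veh DSS it was 2.33 (95% interval 0.48 to 4.17, adjusted p = 1 from limma), where 0.00881% of 11355 genes were called. Without Veh DSS rabbit 1 it was 1.75, without TSO DSS rabbit 1 it was 1.62, and the call was the same.

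The 2 x 2 design of the IEC libraries allows one test of ova over all 12 rabbits. In an exact permutation test with the labels exchanged within Water and within DSS rabbits (two-sided, 400 arrangements, chosen after the data were seen), ENSOCUG00000002925 was higher in TSO than in Veh IEC by 1.87 on the scale of log2(CPM + 1), with p = 0.01. Adjusted over the 4 such tests made, p was 0.04, and 0.005 is the smallest p that the arrangements allow. Without the room B rabbits the difference was 2.06 (exact permutation p = 0.0333, adjusted p = 0.133). This repeat could not pass, since the smallest p of its 120 arrangements is 0.0167, or 0.0667 after the adjustment. Over all rabbits the difference was 1.62 in Water and 2.11 in DSS rabbits. Only 3 of 6 TSO libraries were above all 6 Veh libraries, which was not counted for the other genes. For DSS against Water, exchanged within Veh and within TSO rabbits, the difference of the same gene was 1.27 (exact permutation p = 0.045, adjusted p = 0.09), which did not pass. An interaction term in a fit of the 12 IEC libraries tested whether the ova's effect differed with DSS. The log2 difference between the effects was 0.39 (95% interval -1.75 to 2.52, adjusted p = 1.00 from limma). Its sign turned without Veh DSS rabbit 1 (-0.20), TSO DSS rabbit 1 (-0.30) or TSO Water rabbit 2 (-0.05). Limma called 0% of 11382 genes, edgeR's quasi-likelihood test 0 and DESeq2 9. Before adjustment 172 had p under 0.05 in limma, again a smaller share than 0.05.

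ENSOCUG00000026988 varied in IEC even among rabbits given neither ova nor DSS, at 4.44, 38.9 and 8.82 CPM in Veh Water rabbits 1, 2 and 3 (17.4 ± 18.8, SD, n = 3). In TSO Water it was 92.2, 32.1 and 25.4 CPM (49.9 ± 36.8, SD, n = 3), and in TSO DSS 60.2, 76.2 and 38.7 CPM (58.4 ± 18.8, SD, n = 3). In Veh DSS it was 7.81, 286 and 93.3 CPM (129 ± 142, SD, n = 3), a range of 36.6-fold within a group. Each of these groups overlapped with Veh Water. Veh Water rabbit 2 lay above 3 of the 6 IEC libraries of TSO rabbits, and Veh DSS rabbit 1 within the range of Veh Water.

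ENSOCUG00000026988 passed the limma test in none of the IEC comparisons. Against Veh Water the log2 difference was 2.09 in TSO Water (standard error 0.80, 95% interval 0.18 to 4.00, adjusted p = 0.999 from limma). Without Veh Water rabbit 1 this was 1.41, and without Veh Water rabbit 2 it was 2.94. The difference was 2.52 in TSO DSS (standard error 0.72, 95% interval 0.79 to 4.24, adjusted p = 0.141 from limma) and 2.43 in Veh DSS (standard error 1.39, 95% interval -0.90 to 5.77, adjusted p = 0.640 from limma). The Veh DSS difference was 1.28 without Veh DSS rabbit 2 and 3.86 without Veh DSS rabbit 1. Without Veh Water rabbit 2, the TSO DSS difference was 3.37 and was called (adjusted p = 0.00765 from limma), and without Veh Water rabbit 1 it was 1.84 and was not. DESeq2, which called 6.65% of the genes in TSO DSS against Veh Water, called it with a log2 difference of 1.96 (adjusted p = 0.0438 from DESeq2).

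Between TSO DSS and Veh DSS in IEC the log2 difference of ENSOCUG00000026988 was 0.07 (95% interval -2.86 to 2.99, adjusted p = 1 from limma), although the ratio of the means was 0.453. Its sign turned without Veh DSS rabbit 1, to -1.36, so that no direction can be read from it. In the exact permutation tests over the 12 IEC libraries the difference was 0.82 for TSO (p = 0.405, adjusted p = 0.405) and 1.33 for DSS (p = 0.175, adjusted p = 0.233). The TSO difference was 1.75 in Water and -0.11 in DSS rabbits. The interaction was -2.02 on the log2 scale (95% interval -5.57 to 1.52, adjusted p = 1.00 from limma), so that the ova's effect was not shown to differ with DSS. It was -0.87 without Veh DSS rabbit 2 and -3.47 without Veh DSS rabbit 1.

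The LPMC libraries of TSO DSS and Veh DSS rabbits, all of room A, were not in the contrast of TSO Water with Veh Water. When the genes were picked, however, their high LPMC level in TSO DSS rabbits, compared with Veh Water, was already known, so that the comparison of TSO DSS with Veh DSS is a description, with no test. The log2 difference of ENSOCUG00000002925 was 2.31, with every TSO DSS rabbit at 39.2 CPM or more and every Veh DSS rabbit at 26.5 CPM or less. Without TSO DSS rabbit 2, the lowest of its group, it was 2.76, and without TSO DSS rabbit 3, the library with the fewest reads, it was 2.12. For the background over all 11265 genes, limma called 0% (1064 had p under 0.05 before adjustment), the edgeR quasi-likelihood test 0 genes and DESeq2 2.16%.

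ENSOCUG00000026988 had a log2 difference of -0.62 between TSO DSS and Veh DSS in LPMC, also given with no test. The TSO DSS rabbits lay between the lowest Veh DSS rabbit and the other two, and the ratio of the means was 0.464. Without Veh DSS rabbit 1, whose level was 12.2 CPM, the log2 difference was -1.65. Without Veh DSS rabbit 2 it was -0.09 and without Veh DSS rabbit 3 it was -0.13.

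**Figure D2:**
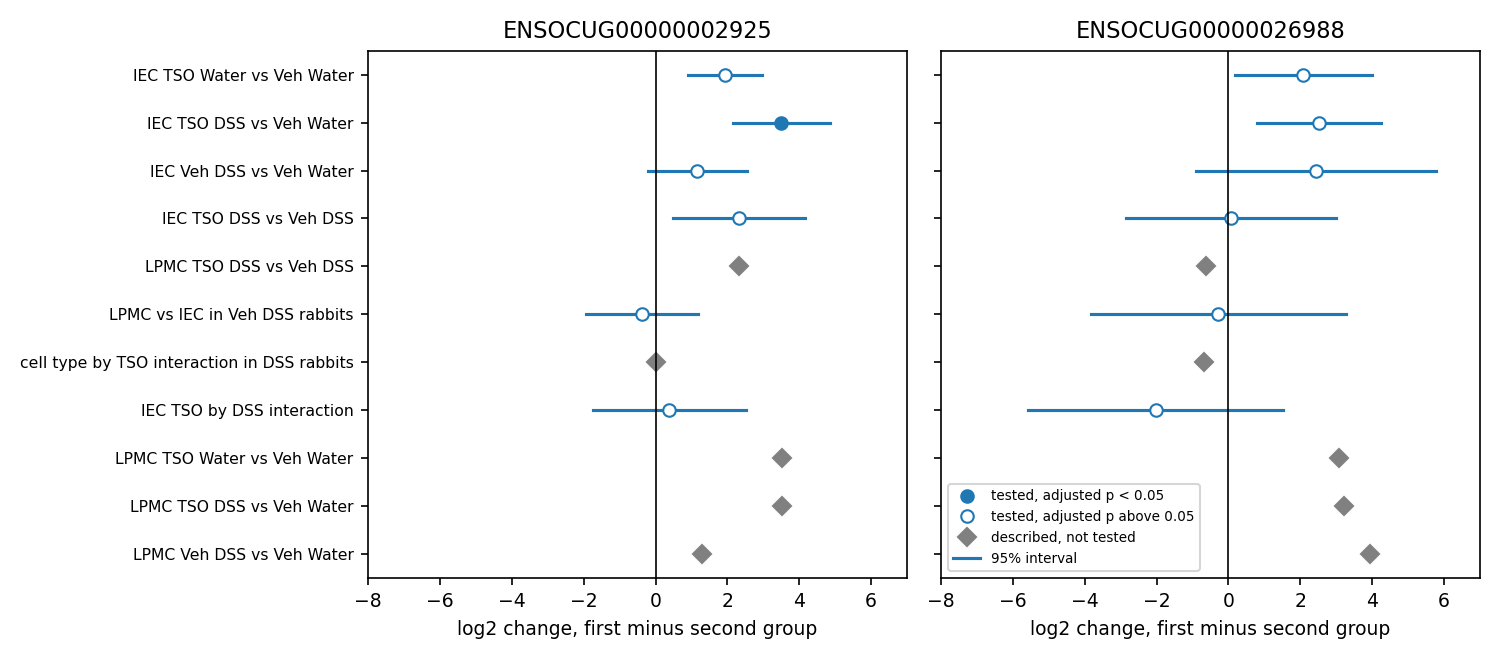
Log2 differences of the 2 genes for each comparison, as the first minus the second group, or as the difference between effects for the interactions. Circles are tested comparisons with their 95% interval from limma without a block, filled where the adjusted p-value is under 0.05, and grey diamonds are comparisons that are described only, since LPMC libraries known when the genes were chosen enter them. The 1 filled circle is ENSOCUG00000002925 in IEC of TSO DSS against Veh Water at 3.51.

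Cell types were tested against each other only in Veh DSS rabbits, where neither gene was called. There, LPMC minus IEC was -0.37 on the log2 scale (95% interval -1.94 to 1.19, adjusted p = 0.752 from limma), and that of ENSOCUG00000026988 was -0.28 (95% interval -3.84 to 3.28, adjusted p = 0.924 from limma), where 4.78% of 11589 genes were called. Both turned to a positive sign without Veh DSS rabbit 2, at 0.29 and 0.30. These intervals do not use the pairing of IEC and LPMC within a rabbit. With the rabbit as a block, the interval of LPMC minus IEC was -1.61 to 0.86 for ENSOCUG00000002925 and -1.35 to 0.79 for ENSOCUG00000026988, and neither was called (adjusted p = 0.630 and 0.681 from limma). The difference between TSO DSS and Veh DSS in LPMC exceeded that in IEC by 0.00 for ENSOCUG00000002925 and by -0.67 for ENSOCUG00000026988 on the log2 scale. Without single rabbits it was -0.67 to 0.42 for the first gene and -1.26 to -0.29 for the second. These values have no test, since they rest on the same TSO DSS libraries of LPMC. In that interaction 0.00856% of 11680 genes were called.

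The levels of both cell types were also set side by side within each rabbit, as a description. ENSOCUG00000002925 was higher in LPMC than in IEC in 7 of 12 rabbits, in 1 of these by less than 1%, with LPMC to IEC ratios of CPM between 0.284 and 3.19 and a median of 1.11. That rabbit was Veh Water rabbit 1, with 6.55 CPM in both. In all 3 TSO Water rabbits the level was higher in LPMC, with ratios of 1.75, 3.19 and 2.47. In TSO DSS the ratio was 0.425 and 0.597 in rabbits 1 and 2 and 2.40 in rabbit 3. ENSOCUG00000026988 was higher in LPMC in 2 of 12 rabbits, both of the group Veh DSS, with ratios of 1.56 and 1.07, and its median ratio was 0.572. Its lowest ratio, 0.114, was that of Veh Water rabbit 2, in which IEC stood out and LPMC did not.

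Rabbits that were high in one cell type tended to be high in the other. As a description over the 12 rabbits, log2(CPM + 1) of LPMC and of IEC correlated with a Pearson's r of 0.76 and a Spearman's rho of 0.76 for ENSOCUG00000002925, and of 0.83 and 0.83 for ENSOCUG00000026988. The points of a rabbit share the animal, its group and its room, and the group differences above are part of these correlations. Veh DSS rabbit 1 was the lowest of its group for both genes in both cell types. Veh DSS rabbit 2 had the highest IEC level of ENSOCUG00000026988 of all rabbits and an LPMC level of 97.5 CPM.

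**Figure D3:**
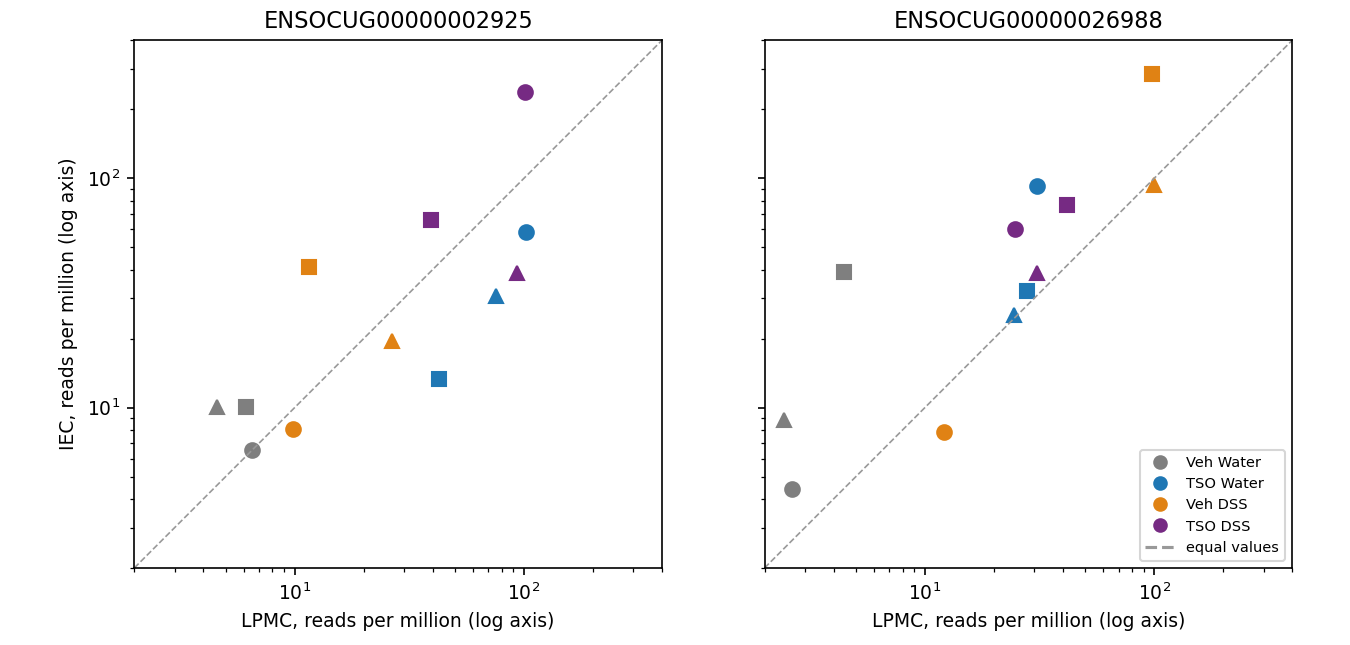
CPM in IEC against CPM in LPMC of the same rabbit for ENSOCUG00000002925 (left) and ENSOCUG00000026988 (right), on log axes, with 1 point per rabbit coloured by group, with a circle, square or triangle for rabbit 1, 2 or 3 of the group. The dashed line marks equal values. For the second gene 10 of 12 points lie above the line, that is, with the higher value in IEC.

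By group mean, ENSOCUG00000002925 fell in the order IEC of TSO DSS (114 CPM), LPMC of TSO DSS (77.5), LPMC of TSO Water (73.3), IEC of TSO Water (34.0), IEC of Veh DSS (22.8), LPMC of Veh DSS (16.0), IEC of Veh Water (8.89) and LPMC of Veh Water (5.76). ENSOCUG00000026988 fell in the order IEC of Veh DSS (129 CPM), LPMC of Veh DSS (70.0), IEC of TSO DSS (58.4), IEC of TSO Water (49.9), LPMC of TSO DSS (32.5), LPMC of TSO Water (27.6), IEC of Veh Water (17.4) and LPMC of Veh Water (3.17). Each neighbouring pair of groups in both orders overlapped. Single rabbits set some of these ranks. For ENSOCUG00000002925, the IEC mean of TSO DSS was 52.2 CPM without rabbit 1, below both TSO groups of LPMC, and its median of 65.6 CPM was also below their medians of 92.8 and 75.7. The IEC mean of TSO Water was 22.0 CPM without rabbit 1 and that of Veh DSS 13.8 without rabbit 2. For ENSOCUG00000026988, the IEC mean of Veh DSS was 50.5 CPM without rabbit 2, below TSO DSS. Its IEC means of TSO Water and Veh Water were 28.8 CPM without rabbit 1 and 6.63 without rabbit 2. In LPMC its Veh DSS mean was 54.9 to 98.8 CPM without single rabbits, above the 27.8 to 36.4 of TSO DSS, although the ranges of the rabbits overlapped.

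The 2 genes followed each other loosely. Over the 24 libraries, their log2(CPM + 1) correlated with r = 0.59, with 0.58 over the 12 LPMC and 0.65 over the 12 IEC libraries, which share the rabbits and the treatment groups. Both genes were chosen as higher in LPMC of TSO Water than of Veh Water. Part of the correlation over the 24 and the 12 LPMC libraries was therefore set by that choice. Among the 10080 genes with a mean of at least 1 CPM, ENSOCUG00000026988 ranked 175th in likeness to ENSOCUG00000002925, and ENSOCUG00000002925 ranked 248th in likeness to ENSOCUG00000026988. In LPMC, Veh DSS rabbits 2 and 3 stood off the trend, with 97.5 and 100.2 CPM of ENSOCUG00000026988 and 11.6 and 26.5 CPM of ENSOCUG00000002925. In IEC, TSO DSS rabbit 1 stood off on the other side, with 60.2 and 237 CPM.

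**Figure D4:**
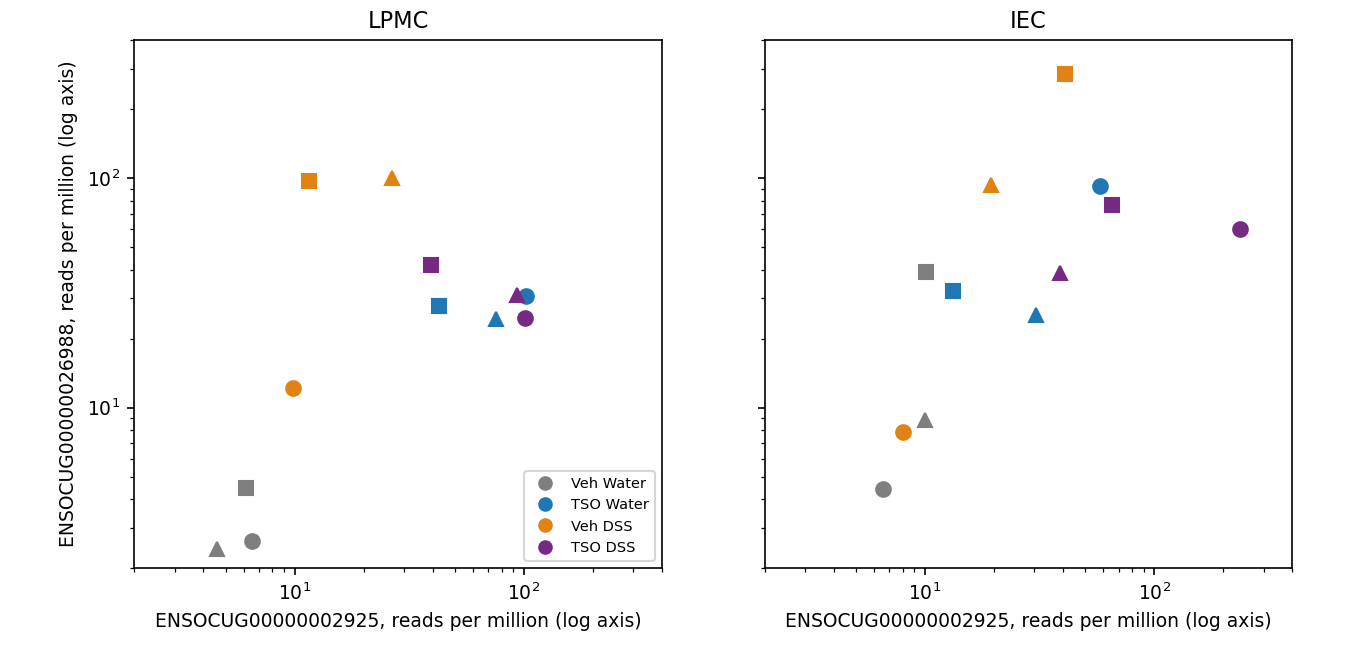
CPM of ENSOCUG00000026988 against CPM of ENSOCUG00000002925 in LPMC (left) and IEC (right), on log axes, with 1 point per library coloured by group, with a circle, square or triangle for rabbit 1, 2 or 3 of the group. In LPMC the TSO points lie at the right, from 39.2 CPM of the first gene, and the Veh DSS points of rabbits 2 and 3 lie at the top, near 100.2 CPM of the second.

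The 5 genes most like ENSOCUG00000002925 over the 24 libraries were ENSOCUG00000010170 on chromosome 1 (r = 0.82), ENSOCUG00000024313 on chromosome 18 (r = 0.82), ENSOCUG00000006268 on chromosome X (r = 0.81), and ENSOCUG00000000305 (r = 0.80) and ENSOCUG00000027621 (r = 0.80), both on chromosome 5. Within the 12 LPMC libraries their r was 0.71 to 0.93 and within the 12 IEC libraries 0.68 to 0.89. ENSOCUG00000024313 had mean levels in LPMC of 147 CPM in Veh Water, 335 in Veh DSS, 536 in TSO Water and 551 in TSO DSS. Its means in IEC were 161, 557, 210 and 494 CPM in the same order, so that in IEC, unlike ENSOCUG00000002925, its highest mean was that of Veh DSS.

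The 5 genes most like ENSOCUG00000026988 were ENSOCUG00000001856, also on chromosome 16 (r = 0.91), ENSOCUG00000001216 on chromosome 18 (r = 0.90), ENSOCUG00000001973 on chromosome 15 (r = 0.88), ENSOCUG00000022954 on chromosome 4 (r = 0.87) and ENSOCUG00000022066 on chromosome 8 (r = 0.86). Within LPMC their r was 0.83 to 0.89 and within IEC 0.88 to 0.94. ENSOCUG00000001856 had LPMC means of 6.71 CPM in Veh Water, 40.6 in Veh DSS, 35.2 in TSO Water and 45.9 in TSO DSS, and IEC means of 29.6, 108, 93.8 and 86.7 CPM in the same order. ENSOCUG00000022066 had its highest mean in Veh DSS in both cell types, with LPMC means of 0.846, 19.3, 5.07 and 6.65 CPM and IEC means of 0.975, 37.7, 3.15 and 12.9 CPM. These genes were picked as the highest of many correlations, with no test, and the files do not say how far ENSOCUG00000001856 lies from ENSOCUG00000026988 on the chromosome.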

How the data were processed

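RNA of IEC and LPMC from 12 rabbits was measured by RNAseq. The submitters' processing notes name the assembly OryCun2.0 and FastQC, and the aligner and counting program are not given in the sources used here. The libraries were made from polyA RNA without strand, so that reads of a gene and of an overlapping gene on the other strand cannot be told apart. The authors deposited 6 tables, each comparing 1 treated group with Veh Water in 1 cell type. The deposited normalized signal was made by the authors from the reads of every gene, multiplied by a factor for each library. The tables also hold the authors' own log2 ratios, p-values and FDR, which were not used.

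The spacing of the low values in each column gave back whole reads. Of 343301 values under 1000, 100% came out within 0.1 of a whole number, and reads of Veh Water libraries under 400 were the same from each table. Comparisons with Veh Water in IEC were tested with limma 3.58.1 (trend, R 4.3.3) on log2(deposited value + 1), over the genes that the authors marked as present. Comparisons for which no table holds all the libraries were tested on the recovered reads after TMM scaling. In the count test that was set as an alternative, edgeR 4.0.16 called 366 genes in IEC of TSO DSS against Veh Water on the recovered reads, where limma called 401. DESeq2 1.42.0 was run in the same way. A call needed a log2 change beyond 1 and a p-value under 0.05 after Benjamini-Hochberg adjustment. Each fit was adjusted over all genes, and only the libraries compared entered it, without a replicate block. Permutation tests and correlations used Python 3.11.15 with scipy 1.17.1.

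The genes, and the rule for the 5 genes named as most like each of them, were chosen with earlier results of these data known. The tests planned for LPMC of TSO DSS against Veh DSS, and for the interaction with cell type, are given as descriptions, because the LPMC level in TSO DSS was among those results. IEC and LPMC of a rabbit are pairs, since they come from the same animal, and across genes their deviations from the group means correlated between -0.098 and 0.36. The labels do not say more of the replicates than that they are different rabbits. The rooms come from the study's supplementary sample metadata.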

Additional observations from a re-analysis of the deposited data

How the results depend on the processing

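Under the alternative settings, 169 values of tested comparisons kept their direction and their side of the threshold, 6 no longer passed it, 3 newly passed it, and 10 changed sign, all in comparisons that were not called. Of the values described without a test, 110 kept their direction and 6 changed sign. ENSOCUG00000002925 in IEC of TSO DSS against Veh Water was 2.82 to 3.92 without single libraries. It was not called without any single Veh Water rabbit, or with a replicate block (3.51, adjusted p = 0.0865 from limma). Nor was it called with room A rabbits only (3.30) or with the room as a covariate (3.30). Both of these amount to leaving out Veh Water rabbit 1, the only room B rabbit of this comparison. The settings counted above are therefore not all separate checks. Same-numbered libraries of different groups are different rabbits. Their deviations correlated between -0.354 and 0.237 in IEC and between -0.204 and 0.313 in LPMC. True pairs from the same rabbit had a similar range, -0.0982 to 0.361. These values therefore cannot tell whether libraries of the same number share anything. The block changed no other call, also where it was the rabbit that gave both cell types. Under DESeq2, ENSOCUG00000002925 was called in IEC of TSO Water against Veh Water (2.07), and ENSOCUG00000026988 in IEC of TSO DSS against Veh Water (1.96). Over their alternatives the adjusted p-values of these were 0.00168 to 1.00 and 0.00765 to 0.373. Without single libraries the ENSOCUG00000026988 difference was 1.84 to 3.37, called without Veh Water rabbit 2 only. The LPMC difference of ENSOCUG00000002925 between TSO DSS and Veh DSS, which is described with no test, was 2.29 with DESeq2 and 2.01 to 2.76 without single libraries.

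ENSOCUG00000026988 in IEC of TSO DSS against Veh DSS was -0.0787 with library size only, -1.03 with edgeR, -1.04 with DESeq2, and -1.36 to 1.20 without single libraries, turning without Veh DSS rabbit 1 or TSO DSS rabbit 2. LPMC minus IEC in Veh DSS rabbits was -0.77 to 0.29 for ENSOCUG00000002925 and -0.68 to 0.30 for ENSOCUG00000026988 without single rabbits. The interaction of cell type with TSO for ENSOCUG00000002925, also described, was -0.19 with library size without mitochondrial genes, -0.0818 with edgeR, -0.0458 with DESeq2, -0.0330 with all 24 libraries, and -0.67 to 0.42 without single rabbits, turning without Veh DSS rabbit 2 or TSO DSS rabbit 3. Its interaction of TSO with DSS in IEC was -0.30 to 0.97 without single libraries, turning without Veh DSS rabbit 1, TSO DSS rabbit 1 or TSO Water rabbit 2. The cause of these changes was not tested. The library size without mitochondrial genes, the permutation tests and the last interaction were chosen after seeing the data. Depth limits the values in LPMC of Veh Water, at 27 to 92 reads, where the counting intervals of the 3 rabbits overlapped for both genes.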
